A study of Mus musculus with 8 samples.

Results

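Apc and the beta-catenin destruction complex were followed through 10 genes, chosen by name as known parts of the complex, out of 39179 genes in the count table. They are Apc, Axin1, Gsk3a, Gsk3b, Csnk1a1, Ctnnb1, Btrc, Amer1, Dvl1 and Dvl2, and all 10 passed the filter on low counts, which kept 18345 genes. RNA was sequenced from 5 small intestinal adenomas of VilCreER+ APCfl/+ mice and from 3 samples of small intestine of VilCreER+ mice with no floxed Apc allele, called wild type here. VilCreER is a tamoxifen-activated Cre recombinase under the villin promoter, which acts in intestinal epithelium and not in stromal or blood cells. In both groups the tissue had undergone tamoxifen-induced recombination, and both were on an inbred C57BL6/J background (N9). The series describes the adenoma-bearing mice as aged and the wild-type tissue as whole intestine, and the labels give neither ages nor which part of Apc is floxed. Whether each library is a mouse of its own is not stated either, so the p-values cover the spread between these libraries, which may be technical.

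In cells without a Wnt signal, the scaffolds Axin and Apc hold beta-catenin beside its kinases. Casein kinase 1 alpha phosphorylates it first and glycogen synthase kinase 3 next, and the F-box protein beta-TrCP then passes it to a ubiquitin ligase for degradation. Dishevelled proteins take a Wnt signal from the receptors to Axin and stop this destruction, and beta-catenin that escapes it enters the nucleus and acts with TCF/LEF factors. In the intestine this pathway maintains crypt stem cells, and loss of Apc is the usual first step of adenoma formation. The control acts mainly on protein stability, which RNA counts do not measure.

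Total counts ran from 19761919 to 28343915 in adenoma and from 18040301 to 20029231 in wild type, and the members had between 210 and 46797 counts in a library. The library labelled adenoma 2 went against its tissue label, since 8 markers of small intestine identity summed to 46.0 CPM (counts scaled to the library size), against 5616 to 10755 CPM in the other adenomas and 17834 to 29208 CPM in wild type. Hoxb13, a homeobox gene of the hindgut, had 245.5 CPM there and at most 0.894 CPM elsewhere. Pancreatic acinar markers summed to 579 CPM in adenoma 5 and 884 CPM in wild type 1, and to at most 4.51 CPM elsewhere. Xist, the RNA of the inactive X chromosome, had 432 to 761 CPM in adenomas 2 to 5, against 1.17 CPM in adenoma 1 and 1.56 to 1.75 CPM in wild type, so sex and genotype largely coincide. Fibroblast markers summed to 2767 to 3480 CPM in adenoma and 1135 to 1499 CPM in wild type, and smooth muscle markers to 416 to 1049 CPM in adenoma and 936 to 1705 CPM in wild type. Epithelial markers summed to 5440 to 10477 CPM in adenoma, a range that includes the 6643 to 7705 CPM of wild type, although within that list 4 of 10 genes were called higher (Krt18 at a log2 fold change of 2.54) and 1 lower (Vil1 at −1.46). Leukocyte markers summed to 207 to 517 CPM in adenoma and 337 to 501 CPM in wild type, with 5 of 8 genes called lower, among them Cd3e (−3.18), Cd8a (−3.04) and Ptprc (−1.48). Of 8 markers of enteric neurons and glia, 4 were called lower and 1 higher, with sums of 22.8 to 34.7 CPM in adenoma and 22.6 to 24.9 CPM in wild type. Of all tested genes 58.1% were called in the test described below, 30.3% higher and 27.8% lower. The part of these marker differences in the results for the complex was not tested beyond the alternatives given with each gene.

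Members of the complex were called in both directions. The RNA of its substrate, Ctnnb1, and of the scaffold Axin1 was higher in adenoma, that of the scaffold Apc and of the kinase Gsk3b was lower, and the other 6 members did not pass the test. The tests were edgeR's quasi-likelihood tests with Benjamini-Hochberg adjustment over all tested genes at 0.05. The 4 called members are 40.0% of the complex, against 58.1% of all tested genes (30.3% higher and 27.8% lower), so members were called no more often than genes in general. The groups did not overlap for 5 members, 3 higher and 2 lower in adenoma, against 56.9% of all tested genes (29.3% higher and 27.6% lower). A change beyond 0.5 on the log2 scale passed for 1 member, against 31.9% of tested genes, and beyond 1 for 0 members, against 13.2%. The median log2 fold change, adenoma over wild type, was −0.11 over the members and 0.04 over all tested genes. In RNA of whole tissue, fewer cells of a type and less RNA per cell cannot be told apart.

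**Figure D1:**
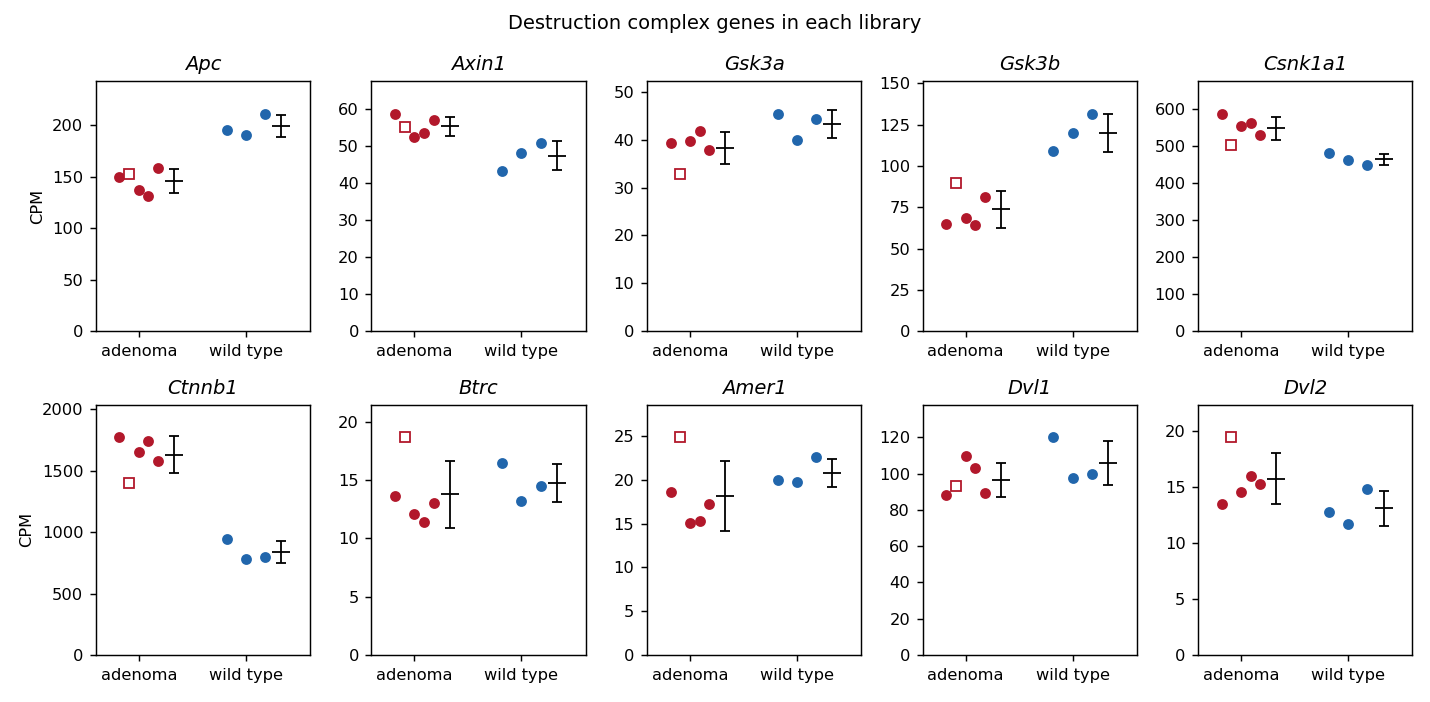
Each panel plots 1 gene of the complex, with CPM on a vertical axis that starts at 0 and 1 point per library, the 5 adenomas left of the 3 wild-type samples; bars are means with SD, and the open square is the library labelled adenoma 2. All Ctnnb1 points of adenoma (1403 to 1773 CPM) lie above all of wild type (781 to 944 CPM), and all Gsk3b points of adenoma (64.2 to 89.7 CPM) lie below all of wild type (108.9 to 131.7 CPM).

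Ctnnb1 encodes beta-catenin, the protein that the complex marks for degradation and that also links E-cadherin to the actin skeleton. It lies on the plus strand at chr9:120929216-120960507 of GRCm38. It had 1773, 1403, 1653, 1746 and 1584 CPM in adenomas 1 to 5, against 944, 781 and 795 CPM in wild type 1 to 3. Every adenoma was above every wild-type sample, and the lowest adenoma was the library labelled adenoma 2. The means were 1632 ± 148 CPM in adenoma (SD, n = 5) and 840.3 ± 90.1 CPM in wild type (SD, n = 3). Ctnnb1 was 1.94-fold higher in adenoma, with a 95% interval of 1.54 to 2.45, a log2 fold change of 0.96 ± 0.15 (SE) and an adjusted p of 0.000781. It was the member that passed the test for a change beyond 0.5 on the log2 scale (edgeR's glmTreat, adjusted p = 0.00813). The call held in all 21 alternatives, with log2 fold changes of 0.73 to 1.08, and without the library labelled adenoma 2 the value was 1.00. Its adjusted p over the alternatives ran from 2.10e-12 to 0.0284. Of its exonic bases 15.1% are shared with other annotated genes, mainly 759 bases with Ulk4 on the opposite strand. The library kit keeps no strand, but Ulk4 itself had 4.50 to 11.9 CPM in adenoma and 9.75 to 12.6 CPM in wild type, far below Ctnnb1. Reads of Ctnnb1 itself in the shared stretch may have been left out of its count.

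The 250 bases before a RefSeq start of Ctnnb1 are shown because this was the largest change of the complex and beta-catenin itself acts through TCF/LEF factors. The window is chr9:120933150-120933399 of GRCm38.p6 on the plus strand, from RefSeq, printed 5′ to 3′. It lies inside the annotated span of the gene, which begins at 120929216.
Ctnnb1 promoter: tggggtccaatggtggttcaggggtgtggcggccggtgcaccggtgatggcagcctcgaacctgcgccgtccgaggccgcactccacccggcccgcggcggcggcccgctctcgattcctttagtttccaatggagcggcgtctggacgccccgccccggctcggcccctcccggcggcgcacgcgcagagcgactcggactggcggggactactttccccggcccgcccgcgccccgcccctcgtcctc
The letters CTTTGA, the core of the sequence TCF/LEF factors are known to bind, were searched on both strands and are absent from this window and from a second one at another start. They occur in 13.8% of 32851 such windows of mouse genes.

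Among the scaffolds, Apc, the tumour suppressor whose allele is floxed in the adenoma mice, lies on the plus strand at chr18:34220924-34322552. It had 149.5, 153.2, 136.8, 131.7 and 158.7 CPM in adenomas 1 to 5, against 195.8, 190.7 and 211.4 CPM in wild type 1 to 3. All 5 adenomas were below all 3 wild-type samples. The log2 fold change was −0.45 ± 0.09 (SE), with a fold of 0.732, a 95% interval of 0.631 to 0.850 and an adjusted p of 0.00374. The counts are of the whole gene, so they give neither the allele nor the exon from which the reads came. Without the library labelled adenoma 2 the value was −0.47 and the call held. The call was lost with scaling to equal epithelial counts (−0.64, adjusted p = 0.0776). It was also lost with a block for the replicate number (−0.44, adjusted p = 0.0703), in which adenomas 4 and 5 do not inform the group difference. With a covariate for whether Xist was above 100 CPM, called the sex covariate, the value was −0.41 and the call was lost. Adenoma 1 is the only adenoma without Xist, so with that covariate the group difference rests on adenoma 1 against the 3 wild-type samples. With a per-library correction for transcript length, added after the data were seen, the value turned to 0.14 (adjusted p = 0.30). Over all 21 alternatives the adjusted p of Apc ran from 2.23e-05 to 0.30.

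Axin1 encodes the scaffold that binds Apc, both kinds of kinase and beta-catenin, and is on chromosome 17. It had 58.8, 55.1, 52.5, 53.5 and 57.0 CPM in adenomas 1 to 5, against 43.2, 48.2 and 50.9 CPM in wild type 1 to 3. The groups did not overlap, but the gap between the lowest adenoma and the highest wild-type sample was small. The log2 fold change was 0.22 ± 0.08 (SE), a fold of 1.17 with a 95% interval of 1.03 to 1.33, at an adjusted p of 0.0416. This call was lost in 14 of 21 alternatives, in which the value stayed above 0 and the adjusted p reached 0.962 with scaling to equal epithelial counts. It was lost on leaving out wild type 1 (0.17), wild type 2 (0.24), adenoma 1 (0.20), adenoma 3 (0.24), adenoma 4 (0.23) or adenoma 5 (0.21), and held without wild type 3 or the library labelled adenoma 2 (0.22). The adjusted p over the alternatives ran from 0.0241 to 0.962. Its paralogue Axin2, a direct target of the pathway and a negative feedback regulator, averaged 180 ± 71.5 CPM in adenoma and 62.4 ± 15.6 CPM in wild type. The log2 fold change of Axin2 was 1.53 ± 0.32 (SE, adjusted p = 0.00368), and 1.25 without the library labelled adenoma 2, which was its highest. The Axin2 call was lost with scaling to equal epithelial counts (1.44) and with the sex covariate.

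Amer1, also called WTX, brings Apc to the plasma membrane and promotes beta-catenin degradation. It had 18.6, 24.9, 15.1, 15.3 and 17.3 CPM in adenomas 1 to 5, against 19.96, 19.73 and 22.6 CPM in wild type 1 to 3. The library labelled adenoma 2 was the highest of all 8, and the other 4 adenomas were below all wild-type samples. The log2 fold change was −0.19 with a 95% interval of −0.57 to 0.20 (adjusted p = 0.361). Without the library labelled adenoma 2 it was −0.33 (adjusted p = 0.0198), while the adjusted p over all alternatives ran from 0.0198 to 0.696. Amer1 is on the X chromosome. Adenoma 1, the only adenoma without Xist, had 18.6 CPM, above adenomas 3 to 5 and below the library labelled adenoma 2. The part of sex in the level of Amer1 cannot be told apart from that of the group here.

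Of the kinases, Gsk3b was lower in adenoma and its paralogue Gsk3a did not pass the test. Both encode forms of glycogen synthase kinase 3, which phosphorylates beta-catenin after priming and also acts in insulin signalling. Gsk3b, on the plus strand at chr16:38089001-38246084, had 65.0, 89.7, 68.7, 64.2 and 81.0 CPM in adenomas 1 to 5, against 108.9, 119.8 and 131.7 CPM in wild type 1 to 3. All adenomas were below all wild-type samples, the library labelled adenoma 2 being the nearest to them. The means were 73.7 ± 11.2 CPM in adenoma and 120.1 ± 11.4 CPM in wild type. On the log2 scale Gsk3b fell by 0.70 ± 0.13 (SE), a fold of 0.614 with a 95% interval of 0.501 to 0.753, at an adjusted p of 0.00189. The call held in all 21 alternatives, with log2 fold changes of −0.89 to −0.40, and without the library labelled adenoma 2 the value was −0.79. Its adjusted p over the alternatives ran from 9.84e-06 to 0.04996, just below the threshold.

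Gsk3a, on the minus strand at chr7:25228258-25237851, had 39.2, 32.7, 39.8, 41.8 and 37.9 CPM in adenomas 1 to 5, against 45.4, 40.0 and 44.4 CPM in wild type 1 to 3. The groups overlapped, with 4 adenomas below all wild-type samples. Gsk3a was at a log2 fold change of −0.18, with a 95% interval of −0.40 to 0.05 (adjusted p = 0.150). It passed with upper-quartile scaling (−0.26, adjusted p = 0.0284) and on keeping genes with 5 CPM in 3 libraries (−0.28, adjusted p = 0.0190), and the adjusted p over the alternatives ran from 0.0190 to 0.540. Of its exonic bases 28.3% are shared with the antisense RNA 9130221H12Rik, which had 4.71 to 6.10 CPM in adenoma and 5.96 to 8.89 CPM in wild type. Without strand, reads of that shared stretch cannot be told apart.

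The 250 bases before the starts of these 2 kinases are shown as the paralogue that changed and the one that did not pass, because both hold the TCF/LEF core. The windows are from RefSeq on GRCm38.p6, chr16:38088751-38089000 on the plus strand for Gsk3b and chr7:25237852-25238101 on the minus strand for Gsk3a. Capitals mark CTTTGA read on the other strand.
Gsk3b promoter: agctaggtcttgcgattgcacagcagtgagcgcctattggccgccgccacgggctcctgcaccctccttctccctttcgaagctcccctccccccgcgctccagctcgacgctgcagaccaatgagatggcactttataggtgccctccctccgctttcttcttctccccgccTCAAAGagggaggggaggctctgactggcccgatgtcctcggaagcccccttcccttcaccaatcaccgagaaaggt
Gsk3a promoter: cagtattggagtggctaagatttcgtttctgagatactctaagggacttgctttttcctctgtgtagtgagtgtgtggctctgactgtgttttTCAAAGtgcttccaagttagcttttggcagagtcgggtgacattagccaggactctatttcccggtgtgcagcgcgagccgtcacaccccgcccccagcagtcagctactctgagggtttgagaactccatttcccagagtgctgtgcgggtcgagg
The first base of the match lies 77 bases before the start of Gsk3b and 157 bases before that of Gsk3a. The Dvl1 and Dvl2 windows hold no match. Only 5 members had a window, so Apc, Axin1, Csnk1a1, Btrc and Amer1 were not searched. A match is a description of the letters and does not show that a factor binds there.

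Csnk1a1 encodes casein kinase 1 alpha, which primes beta-catenin for glycogen synthase kinase 3, and is on chromosome 18. It had 587.7, 504.1, 554.9, 562.9 and 528.9 CPM in adenomas 1 to 5, against 480.1, 462.9 and 449.3 CPM in wild type 1 to 3. All adenomas were above all wild-type samples, but the test was not passed at a log2 fold change of 0.24 ± 0.11 (SE, adjusted p = 0.0841). The 95% interval of its log2 fold change was −0.005 to 0.48. It passed with total-count scaling (0.32, adjusted p = 0.0250), without the library labelled adenoma 2 (0.26, adjusted p = 0.0235), with limma-voom (0.24, adjusted p = 0.0479) and with DESeq2 (0.24, adjusted p = 0.0183). Over all alternatives the adjusted p ran from 0.0183 to 0.949.

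Btrc encodes beta-TrCP, the F-box protein that recognises phosphorylated beta-catenin, and is on chromosome 19. It had 13.6, 18.6, 12.1, 11.4 and 13.03 CPM in adenomas 1 to 5, against 16.4, 13.2 and 14.5 CPM in wild type 1 to 3. The groups overlapped, with the library labelled adenoma 2 the highest of all 8. Btrc was at a log2 fold change of −0.10, with a 95% interval of −0.48 to 0.29 (adjusted p = 0.636), so a change of either sign within that range was not resolved. Fbxw11, which encodes the second beta-TrCP, averaged 88.3 ± 2.99 CPM in adenoma and 71.3 ± 5.00 CPM in wild type and was higher in adenoma (log2 fold change 0.31 ± 0.08, adjusted p = 0.00778). Its call was lost with scaling to equal epithelial counts (0.10), the replicate block (0.30) and the sex covariate (0.35).

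The Dishevelled genes, whose proteins carry the Wnt signal to Axin, did not pass the test. Dvl1, on chromosome 4, had 88.2, 93.2, 109.8, 103.2 and 89.2 CPM in adenomas 1 to 5, against 120.1, 97.8 and 99.8 CPM in wild type 1 to 3 (log2 fold change −0.13, 95% interval −0.38 to 0.12, adjusted p = 0.329). Dvl2, on chromosome 11, had 13.4, 19.4, 14.5, 16.0 and 15.3 CPM in adenomas 1 to 5, against 12.7, 11.7 and 14.8 CPM in wild type 1 to 3 (0.26, 95% interval −0.06 to 0.59, adjusted p = 0.137). In both genes the groups overlapped, and the library labelled adenoma 2 was the highest for Dvl2. Dvl2 passed with the correction for transcript length alone (0.34, adjusted p = 0.0463), and its adjusted p over the alternatives ran from 0.0463 to 0.904. Dvl2 shares 1151 exonic bases with Acadvl on the opposite strand, a mitochondrial fatty acid oxidation gene with 62.4 to 124 CPM in adenoma and 101 to 137 CPM in wild type, so the counts of Dvl2 depend on how reads of that overlap were assigned. The third paralogue, Dvl3, averaged 14.1 ± 3.30 CPM in adenoma and 21.7 ± 4.40 CPM in wild type and was lower in adenoma (−0.62 ± 0.20, adjusted p = 0.0266). That call was lost in 9 alternatives, with the value below 0 in each. These were without wild type 2 (−0.58), wild type 3 (−0.48), adenoma 1 (−0.57), adenoma 3 (−0.59) or adenoma 4 (−0.56), with total-count (−0.53) or epithelial scaling (−0.76), with the replicate block (−0.57) and with the sex covariate (−0.87).

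**Figure D2:**
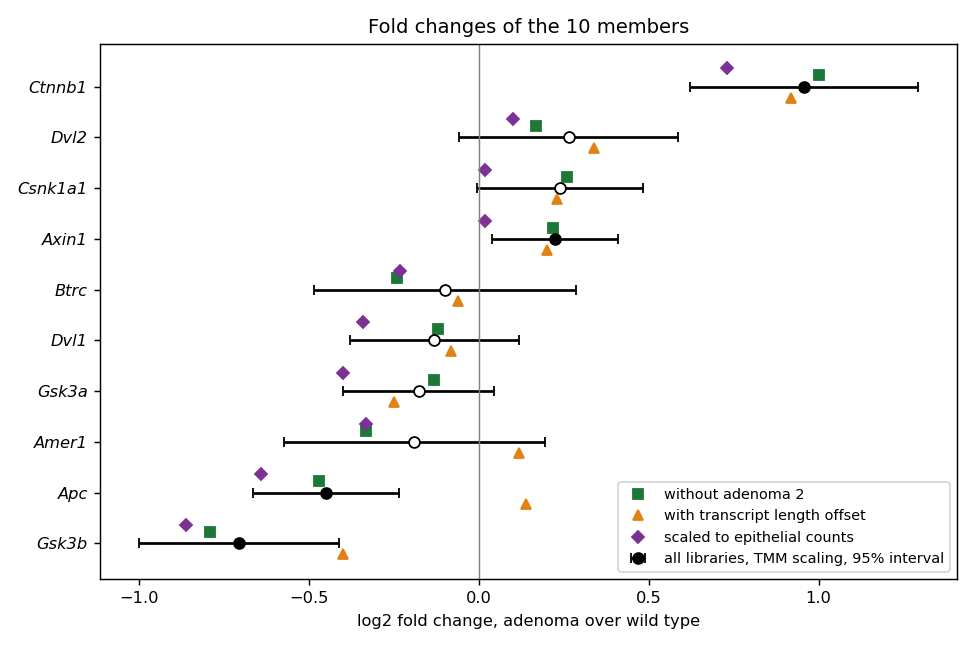
Circles are the log2 fold changes of the members, adenoma over wild type, with 95% intervals, filled where the adjusted p was below 0.05; squares leave out the library labelled adenoma 2, triangles use the transcript length offset and diamonds scale to equal epithelial counts. Ctnnb1 stands at 0.96 and Gsk3b at −0.70, with all their symbols on 1 side of 0, while the triangle of Apc (0.14) is on the other side from its circle (−0.45).

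Levels can be set between genes per length, here as CPM per kilobase of the union of annotated exons. Ctnnb1 led by far, with 314 CPM per kb in adenoma and 162 CPM per kb in wild type. Csnk1a1 came next with 52.2 CPM per kb in adenoma and 44.2 CPM per kb in wild type, followed by Dvl1 with 19.4 CPM per kb in adenoma and 21.2 CPM per kb in wild type. In adenoma, Axin1 (14.5), Gsk3a (13.2), Apc (9.06) and Gsk3b (7.5 CPM per kb) were next, and the ranges over libraries overlapped between Axin1 and Gsk3a and between Apc and Gsk3b. In wild type, Gsk3a had 14.9 CPM per kb, while Axin1 (12.4), Apc (12.4) and Gsk3b (12.2 CPM per kb) could not be ordered. The order in wild type depended on the length used, since with the longest transcript Apc had 14.9 to 16.5 CPM per kb there and Axin1 11.4 to 13.5 CPM per kb, with no overlap. The lowest members were Dvl2, with 2.50 CPM per kb in adenoma and 2.08 CPM per kb in wild type, Amer1, with 2.15 CPM per kb in adenoma and 2.45 CPM per kb in wild type, and Btrc, with 0.813 CPM per kb in adenoma and 0.871 CPM per kb in wild type. With the longest transcript, the adenoma levels of 7 members moved by more than their SD over libraries. The largest shifts were those of Csnk1a1 (134 CPM per kb) and Btrc (2.91 CPM per kb), Ctnnb1 was at 450 and Apc at 11.4 CPM per kb, and Amer1 was then the lowest member in place of Btrc.

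Ratios within a library do not depend on how libraries are scaled, but they do depend on transcript length where the 2 genes differ in it, and 13 pairs of genes were compared as log2 ratios of CPM per kb. The scaffold Apc against the substrate Ctnnb1 had log2 ratios of −5.20, −4.83, −5.23, −5.36 and −4.95 in adenomas 1 to 5, against −3.90, −3.67 and −3.55 in wild type 1 to 3. All adenomas were below all wild-type samples, a difference of −1.41. Axin1 against Apc had log2 ratios of 0.73, 0.60, 0.69, 0.78 and 0.60 in adenomas 1 to 5, against −0.11, 0.09 and 0.02 in wild type 1 to 3, a difference of 0.68. Ctnnb1 against Cdh1, which encodes the E-cadherin it binds at junctions, averaged 1.52 ± 0.10 in adenoma and 0.67 ± 0.29 in wild type. The pairs Amer1 to Apc (difference 0.24), Axin1 to Axin2 (−1.26), Csnk1a1 to Csnk1e (−1.32) and Dvl2 to Dvl3 (0.89) also did not overlap between groups. For these 7 pairs an exact two-sided permutation test over the 56 groupings of the libraries gave p = 0.0357, the smallest it can give, and 0.0663 after Benjamini-Hochberg adjustment over the 13 pairs, so 0 pairs passed after adjustment. A pair could pass only if most of the 13 reached that smallest p together, so the lack of a pass says little. With the length offset the differences were −0.79 for Apc to Ctnnb1, 0.06 for Axin1 to Apc and −0.02 for Amer1 to Apc, taken from the fitted fold changes with no test, while those of the other 4 pairs moved by less than the SD between libraries. The kinase pair Gsk3a to Gsk3b differed by 0.53 (exact permutation p = 0.0714, adjusted 0.0929) and overlapped between groups, and it was 0.66 without the library labelled adenoma 2 and 0.16 with the length offset. The pair Csnk1a1 to Csnk1d averaged 0.62 ± 0.08 in adenoma and 0.67 ± 0.03 in wild type, a difference of −0.05 (exact permutation p = 0.393).

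**Figure D3:**
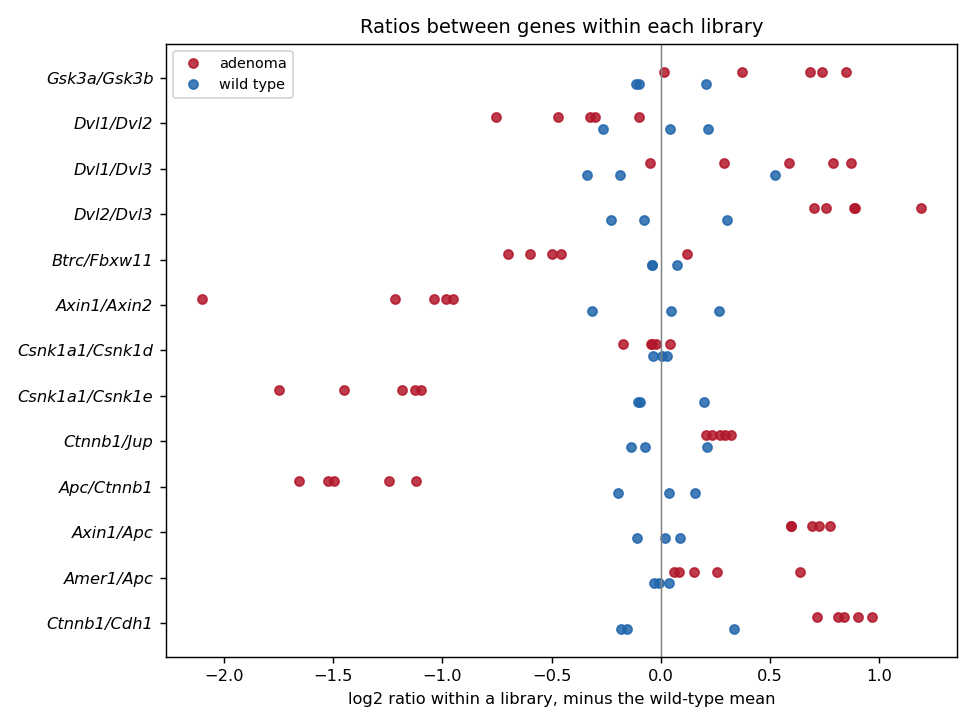
Each row is 1 pair of genes and each point the log2 ratio of their levels in 1 library minus the wild-type mean of that pair, so that 0 is the wild-type mean; red points are the 5 adenomas, drawn above the 3 wild-type samples in blue. All adenoma points of Apc to Ctnnb1 lie left of all wild-type points, around a difference of −1.41, while those of Csnk1a1 to Csnk1d overlap with wild type.

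Transcript length moved with the group across the whole table, which bears on Apc, whose longest transcript is 12.8 kb. Genes over 12 kb had a median log2 fold change of −0.77 (177 genes, 62.1% called lower and 9.04% higher), those of 8 to 12 kb −0.28, those of 4 to 8 kb −0.06, those of 2 to 4 kb 0.12 and those up to 2 kb 0.13. Apc, at −0.45, was 0.32 above the median of its class. Gsk3b, with a longest transcript of 8.30 kb, was at −0.70 against a class median of −0.28, a difference of −0.42. Ctnnb1, at 3.62 kb, was 0.84 above its own class median. The centred log2 CPM of genes over 12 kb had a median of −0.35, 0.08, −0.28, −0.50 and −0.26 in adenomas 1 to 5, against 0.45, 0.44 and 0.46 in wild type 1 to 3. Why long transcripts were lower in adenoma was not tested. With the length correction, Ctnnb1 was at 0.92 (adjusted p = 0.00134) and Gsk3b at −0.40 (adjusted p = 0.00411), both still called, and Apc and Amer1 changed sign without a call.

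**Figure D4:**
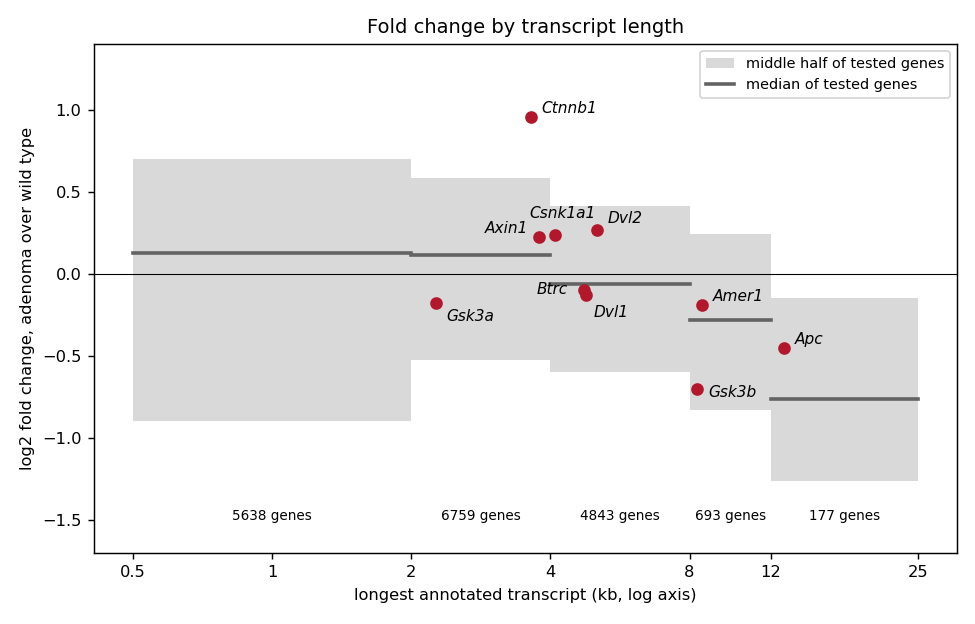
Log2 fold change, adenoma over wild type, against the longest annotated transcript in kb on a log axis; grey boxes span the lower to the upper quartile of all tested genes in each of 5 length classes, the outer classes being open-ended, and red points are genes of the complex. The class median falls to −0.77 over 12 kb, where Apc lies at −0.45, and Ctnnb1 at 0.96 lies above the box of its class.

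The paralogues of the members were all called, 7 higher and 4 lower of 11 tested, against 58.1% of all tested genes called. Csnk1e, which encodes casein kinase 1 epsilon, a kinase that phosphorylates Dishevelled, averaged 62.6 ± 9.07 CPM in adenoma and 21.1 ± 1.88 CPM in wild type (log2 fold change 1.57 ± 0.13, adjusted p = 4.97e-05). Jup, which encodes plakoglobin, the close relative of beta-catenin at junctions, averaged 361 ± 30.2 CPM in adenoma and 223 ± 8.68 CPM in wild type (0.70 ± 0.11, adjusted p = 0.000844). Csnk1g1, a membrane-bound casein kinase 1, averaged 33.7 ± 4.52 CPM in adenoma and 61.0 ± 4.77 CPM in wild type (−0.86 ± 0.12, adjusted p = 0.000424). With scaling to equal epithelial counts, which moves the median of all genes to −0.16, 2 paralogues were higher and 2 lower, and Jup lost its call. The replicate block left 4 higher and 2 lower, the sex covariate 3 and 2, and total-count scaling 7 and 2. These paralogues were listed with earlier results of these libraries in view, so their called share is not independent evidence.

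Partners of the ubiquitin ligase that carries beta-TrCP were called higher for 4 of 7 and lower for 0. That is 57.1% of the list, near the 58.1% of all tested genes that were called (30.3% higher). Skp1a, the adaptor between F-box protein and cullin, averaged 289 ± 18.6 CPM in adenoma and 140 ± 9.18 CPM in wild type (log2 fold change 1.05 ± 0.10, adjusted p = 8.61e-05). Rbx1, its RING subunit, averaged 30.5 ± 2.05 CPM in adenoma and 18.4 ± 1.77 CPM in wild type (0.72 ± 0.10, adjusted p = 0.000481). Nedd8 (0.59), the modifier that activates cullins, and Cand1 (0.35), the exchange factor, were also higher, and Cul1 was at 0.26 without passing. With scaling to equal epithelial counts 1 of the 7 was called, Skp1a. Cand1 was also lost with the replicate block, with the sex covariate, without wild type 3 (0.32) and without wild type 1 and adenoma 5 together, and Nedd8 with the block.

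Subunits of PP2A, the phosphatase that can undo the phosphorylation of beta-catenin, were called higher for 5 and lower for 4 of 10. That is 90.0% of the list, against 58.1% of all tested genes. The catalytic subunit Ppp2cb (1.08 ± 0.13) and the scaffold subunits Ppp2r1a (0.78 ± 0.09) and Ppp2r1b (0.68 ± 0.13) were higher, and Ppp2r5d, a regulatory subunit, was lower with 64.2 ± 4.61 CPM in adenoma and 106 ± 15.2 CPM in wild type (−0.72 ± 0.10). With scaling to equal epithelial counts 1 subunit was higher and 1 lower, with Ppp2r1a and Ppp2r1b losing their calls, and with total-count scaling 5 were higher and 1 lower. The replicate block left 4 subunits higher and 1 lower, and the sex covariate 3 and 1. Of 7 genes of Axin turnover, 1 was higher and 2 were lower, a called share of 42.9%. Tnks2, a tankyrase that marks Axin for degradation, averaged 290 ± 24.6 CPM in adenoma and 199 ± 2.94 CPM in wild type (0.54 ± 0.11, adjusted p = 0.00236), whereas the other tankyrase gene, Tnks, averaged 72.2 ± 11.1 CPM in adenoma and 110 ± 5.66 CPM in wild type (−0.61 ± 0.12, adjusted p = 0.00302). Usp34, a deubiquitinase that stabilises Axin, was lower (−0.81 ± 0.12). With the length correction Tnks was at −0.26 and Usp34 at −0.27, both still called. Scaling to equal epithelial counts ended the calls of Tnks and Tnks2, the sex covariate also that of Tnks and the replicate block also that of Tnks2.

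Of 5 regulators of glycogen synthase kinase 3, 2 were higher and 1 lower. Akt1, a kinase that inhibits it, averaged 229 ± 24.5 CPM in adenoma and 116 ± 15.5 CPM in wild type (0.99 ± 0.13, adjusted p = 0.000393), and Gskip, which binds it, was lower (−0.38 ± 0.11), a call that held in 16 of 22 settings. The Gskip call was lost with scaling to equal epithelial counts (−0.59), with no filter, with the replicate block, with the sex covariate, without wild type 1 (−0.27), and without wild type 1 and adenoma 5 together. Of 11 partners on the Dishevelled side, 3 were higher and 3 lower. Called shares were 60.0% of the kinase regulators and 54.5% of the Dishevelled-side partners, against 58.1% of all tested genes. Nkd1, a feedback inhibitor that binds Dishevelled, averaged 196 ± 19.0 CPM in adenoma and 7.25 ± 0.411 CPM in wild type (4.75 ± 0.13, adjusted p = 1.19e-06), while its paralogue Nkd2 averaged 4.09 ± 1.45 CPM in adenoma and 12.8 ± 1.55 CPM in wild type (−1.64 ± 0.28, adjusted p = 0.00123).

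Of 10 nuclear partners of beta-catenin, 2 were higher and 3 lower. That share lies below the 58.1% of all tested genes that were called (30.3% higher and 27.8% lower). The histone acetyltransferase genes Crebbp (−1.14 ± 0.13) and Ep300 (−1.35 ± 0.17) were lower and Pygo2, a chromatin-reading coactivator, was higher (0.70 ± 0.07). Crebbp and Ep300 were still called with the length correction, at −0.68 and −0.98. Of 6 junction partners, 0 were higher and 1 lower, Ctnna2, at under 2 CPM in both group means, and Cdh1 was at 0.10 with a 95% interval of −0.15 to 0.36. Of 9 partners that bind Apc, 2 were higher and 4 lower, among them the formin gene Diaph1 (−0.96 ± 0.10) and Mapre2 (−0.89 ± 0.11), a microtubule plus-end gene, with Kifap3 (0.74 ± 0.11), a kinesin-associated gene, higher. The called shares were 16.7% of the junction partners and 66.7% of the Apc partners, against 58.1% of all tested genes. With scaling to equal epithelial counts 0 nuclear partners were higher and 3 lower, and 0 Apc partners were higher and 3 lower. Pygo2 and Kifap3 lost their calls with that scaling.

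All 12 target genes used to read beta-catenin activity were called higher, against 30.3% of all tested genes. Their median was 2.46 on the log2 scale, against 0.04 over all tested genes. Notum, a secreted Wnt inhibitor, averaged 222.5 ± 44.1 CPM in adenoma and 0.587 ± 0.114 CPM in wild type (8.55 ± 0.28, adjusted p = 1.55e-06), and Prox1, a homeobox transcription factor gene, averaged 126 ± 21.4 CPM in adenoma and 3.75 ± 1.01 CPM in wild type (5.07 ± 0.24, adjusted p = 6.67e-06). These genes were chosen as known targets with earlier results of these libraries in view, so their direction is not independent evidence. With scaling to equal epithelial counts 11 of the 12 were called, and without the library labelled adenoma 2 all 12 were.

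**Figure D5:**
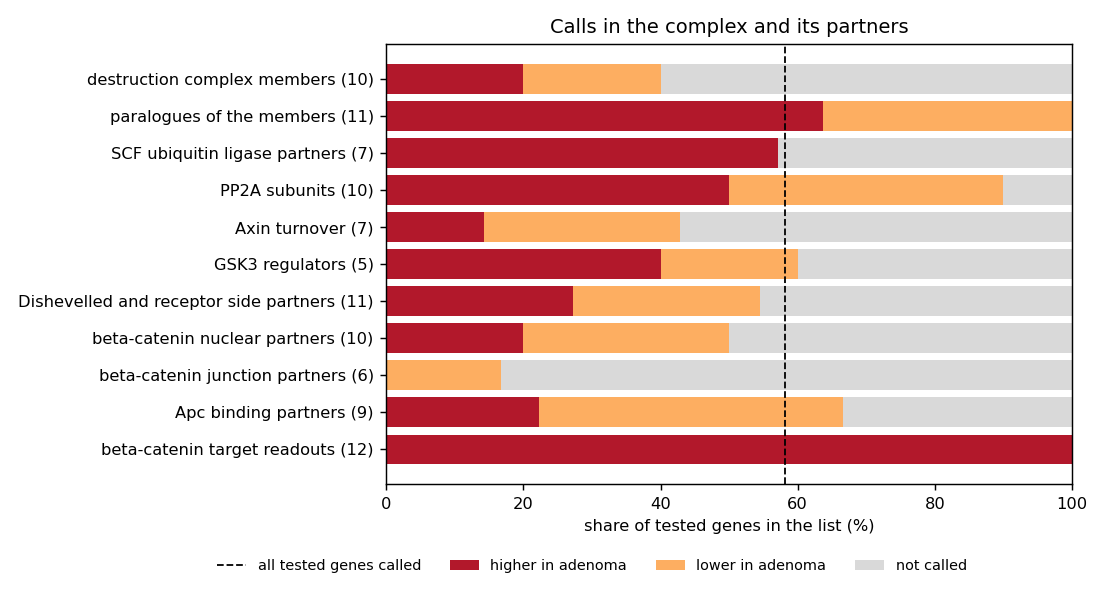
Each bar divides the tested genes of 1 list (their number in brackets) by percent into those called higher in adenoma, called lower and not called; the dashed line is the 58.1% of all tested genes that were called. The bar of the complex reaches 40.0%, below the line, and that of the 12 target genes is higher throughout.

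The genes whose profile was most like that of a member were ranked by the root mean square difference of log2 CPM, centred on each gene's mean, over the 8 libraries, among 11624 candidates. For Apc the 5 most alike included Akap10, Sp1, Wrn and Rock1 (each 0.06 log2 units), with log2 fold changes of −0.38, −0.44, −0.44 and −0.54 in that order. For Ctnnb1 the 5 most alike included Rpl26 (0.04), Rps15-ps2 (0.04), Rpl31-ps8 (0.05) and Chic2 (0.06), with log2 fold changes of 1.00, 0.94, 0.96 and 0.94 in that order. Rps15-ps2 and Rpl31-ps8 are annotated as pseudogenes of ribosomal proteins, whose counts can hold reads of their near-identical parent genes.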

How the data were processed

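The authors deposited raw counts per gene for 8 libraries. Per the labels' protocols, RNeasy RNA went into TruSeq v2 libraries, a kit that keeps no strand, read on a NextSeq as paired ends of 36 cycles. The tools FastQC, TopHat2 and HTSeq and the build GRCm38 are named per the submitters' processing notes. Versions and the strand setting are not given in any sources used here. Reads of overlapping genes may have been shared between them or left out. Counts were tested with edgeR 4.0.16 in R 4.3.3 (filterByExpr, TMM scaling, robust quasi-likelihood test, Benjamini-Hochberg adjustment at 0.05), after checking on simulated data. The simulated counts held few changed genes, as many higher as lower, and no trend with transcript length. They do not show how the test behaves where most genes are called. CPM are counts scaled by TMM library sizes. Gene positions and lengths came from GENCODE M21. The ratios used an added 0.5 count. Alternatives were RLE, upper-quartile, total-count and epithelial scaling, 2 filters, a replicate block, leaving out libraries, no ribosomal RNA genes, a sex covariate, limma-voom 3.58.1, DESeq2 1.42.0 and, added later, a transcript-length offset from a lowess fit.

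The members and lists were chosen with earlier results of these data known. The rule for named genes took all members, for each list up to 4 genes by smallest adjusted p and the leading gene of its minority direction, and the 5 genes most like Apc and Ctnnb1. The text names some of those genes, others are not reported here, and Fbxw11, Dvl3, Cul1, Cdh1 and genes that overlap a member were added as context. Members total 10 of 37693 genes with a symbol.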

Additional observations from a re-analysis of the deposited data

Results flagged for a closer look

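In 57 sets of 5 adenoma values, each for 1 gene of the lists or 1 ratio, 3 had a library far from the other adenomas by Dixon's criterion, where chance gives about 1 in 20. Axin2 had 305.1 CPM in the library labelled adenoma 2, against 133 to 171 CPM in the other adenomas. The log2 ratio of Axin1 to Axin2 was −1.94 in the same library, against −1.06 to −0.79 in the others. Ppp2r5d had 72.3 CPM in adenoma 3, against 61.2 to 63.3 CPM in the other adenomas.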

How the results depend on the processing

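Of all tested genes 10657 were called (5558 higher, 5099 lower), and 4 members. With scaling to equal epithelial counts 5892 genes (1841 higher, 4051 lower) and 2 members were called, and with a covariate for sex pattern 5372 genes (3074 higher, 2298 lower) and 2 members. Ctnnb1 and Gsk3b were called in all 21 alternatives, and Apc, Axin1, Gsk3a, Csnk1a1, Amer1 and Dvl2 changed their call in at least 1 of them. Leaving out each library in turn gave 8664 to 12276 genes and 3 to 6 members, the highest of both without the library labelled adenoma 2. Values that changed sign were Apc at 0.14 and Amer1 at 0.12 with the length offset, and Btrc at 0.01 and Dvl1 at 0.00 without wild type 1 and adenoma 5; the cause was not tested. Leaving out libraries says nothing about the ratios. The smallest exact permutation p is then 0.0571 without 1 adenoma, 0.0952 without 1 wild type and 0.133 without 1 of each. An added count of 5 also gave 0 of 13 ratios after adjustment, where the smallest p again left little room to pass. Total-count scaling called 6066 genes higher and 4396 lower, and upper-quartile scaling 4860 higher and 5591 lower.

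Samples with the same replicate number did not deviate together, with correlations of −0.02, 0.05 and 0.06 between adenoma and wild type, although 4 of 6 libraries correlated best with their own number. With a replicate block 6549 genes and 2 members were called. Apc was at −0.44, Axin1 at 0.23, Ctnnb1 at 0.94 and Gsk3b at −0.70, and Apc and Axin1 lost their calls. Adenomas 4 and 5 have no wild-type sample of the same number, so the block fit compares adenomas 1 to 3 with wild type 1 to 3. It leaves 2 residual degrees of freedom, against 6 in the main fit, so a lost call may reflect fewer libraries.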
